A study of Mus musculus with 24 samples.

Results

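The region described here is the 5 Mb block of mouse chromosome 10 between 35 and 40 Mb (mm10), with every histone peak called inside it. Its members were all peaks of 7 peak lists whose midpoint lay in the block, which gave 1486 of the 368246 peaks in the 7 lists together, and no peak crossed an edge of the block. The block was chosen by counts of NIH3T3 H3K27ac peaks, since it held many more that were found only under purmorphamine than only in the control. Those counts are therefore given below as a description and carry no test.

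The lists came from ChIP-seq, in which chromatin fragments carrying a modified histone are recovered with an antibody and sequenced. NIH3T3, an established line of mouse fibroblasts, was kept in low serum and treated for 48 h with 400 nM purmorphamine, an agonist of the HH pathway, or with DMSO, the vehicle control. The labels of both groups also name LIF, and each ChIP used about 1000000 cells. Forelimb buds were taken at E10.5 (32 to 35 somites) from wild-type embryos and from Shh-/- embryos, which lack the Sonic hedgehog ligand in every tissue, all on a Swiss Webster background, with about 400000 cells per ChIP. The methods describe the WT limb group as including heterozygous littermates, and limb buds were pooled across litters. H3K27ac was mapped in all 4 groups, H3K4me2 in both limb groups and H3K27me3 in Shh-/- limb buds. The 24 libraries were 14 ChIP libraries, 2 per list, and 10 inputs. Each list was called on both of its replicates together, so no spread between replicates could be had, no comparison below carries a p-value, and the 95% Wilson intervals cover counting error only. The H3K27ac antibody differed between limb buds and NIH3T3 cells, and limb and fibroblast lists were therefore compared only by where their peaks lay.

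H3K27ac is an acetylated lysine on histone H3 that marks active promoters and enhancers, H3K4me2 is found at active and at poised regulatory sites, and H3K27me3 is the mark left by Polycomb complexes at silenced genes. In the HH pathway, ligand relieves the inhibition of Smoothened, and GLI proteins then change from transcriptional repressors to activators at enhancers that carry their motif. An agonist such as purmorphamine activates the same pathway. Enhancers can lie far from the promoters they act on, so an acetylated stretch between genes cannot be assigned to a gene from its position alone.

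A peak was called shared when it overlapped a peak of the paired list by at least 1 bp, and purmorphamine-only or control-only when it did not. The rank of a peak is its place in its own list, with 1 the best. The sequence in the middle of the 3 best-ranked purmorphamine-only peaks is shown first, because these are the strongest acetylated sites that had no partner in the control list (GRCm38, all in lower case because neither motif named below occurred in these windows).
Middle of the purmorphamine-only peak ranked 13528, chr10:38085649-38085798, plus strand: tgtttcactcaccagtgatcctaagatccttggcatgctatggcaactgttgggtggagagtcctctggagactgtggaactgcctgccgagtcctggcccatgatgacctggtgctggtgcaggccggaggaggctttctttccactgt
Middle of the purmorphamine-only peak ranked 17426, chr10:38093099-38093248, plus strand: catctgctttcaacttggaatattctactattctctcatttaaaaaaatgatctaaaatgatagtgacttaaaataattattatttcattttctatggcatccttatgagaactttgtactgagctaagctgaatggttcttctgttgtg
Middle of the purmorphamine-only peak ranked 17645, chr10:38366324-38366473, plus strand: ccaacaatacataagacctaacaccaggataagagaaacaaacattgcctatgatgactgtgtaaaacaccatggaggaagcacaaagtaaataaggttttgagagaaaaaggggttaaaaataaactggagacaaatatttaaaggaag
These 3 windows had a GC content of 56.0%, 29.3% and 34.7%. All 3 lay in the 1682 kb between Marcks and Rfpl4b, more than 400 kb from any protein-coding start site.

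The next set shows every match to the GLI consensus GACCACCCA, searched on both strands, within the purmorphamine peaks of the block. The 9 bases of the match are in capitals, 20 bases are shown on either side, and the strand is that on which the consensus reads as written.
GLI match in the shared peak ranked 2, chr10:39614315-39614363, minus strand: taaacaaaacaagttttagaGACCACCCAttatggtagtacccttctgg
GLI match in the shared peak ranked 3422, chr10:38554186-38554234, minus strand: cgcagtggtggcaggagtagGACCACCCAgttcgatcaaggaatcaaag
GLI match in the shared peak ranked 5850, chr10:38314297-38314345, plus strand: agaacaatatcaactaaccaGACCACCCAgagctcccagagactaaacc
GLI match in the shared peak ranked 9513, chr10:37859447-37859495, plus strand: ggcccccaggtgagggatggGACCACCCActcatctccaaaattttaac
GLI match in the shared peak ranked 11519, chr10:37718066-37718114, plus strand: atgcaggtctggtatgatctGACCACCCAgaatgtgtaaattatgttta
GLI match in the purmorphamine-only peak ranked 27806, chr10:38468913-38468961, plus strand: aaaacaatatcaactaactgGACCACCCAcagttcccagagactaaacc
Of the 6 matches, 5 lay in shared peaks and 1 in a purmorphamine-only peak. The matches in the peaks ranked 5850 and 27806 were alike far beyond the motif, with 44 of 49 bases identical, and both lay in sequence that the reference marks as repetitive, as did the match in the peak ranked 9513. The match in the peak ranked 2 lay downstream of the Traf3ip2 start site, at 39614335 to 39614343.

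The last set comes from the best-ranked acetylated peak of the block that was not at a protein-coding promoter. It shows the 3 matches to TGACTCA or its reverse complement TGAGTCA, the canonical sites of the AP-1 transcription factors, in capitals.
AP-1 match in the shared peak ranked 234, chr10:38120037-38120083, plus strand: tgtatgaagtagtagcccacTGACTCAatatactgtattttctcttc
AP-1 match in the shared peak ranked 234, chr10:38123488-38123534, plus strand: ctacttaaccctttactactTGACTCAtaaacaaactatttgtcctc
AP-1 match in the shared peak ranked 234, chr10:38123720-38123766, plus strand: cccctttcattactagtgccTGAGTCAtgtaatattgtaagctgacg

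The block had more purmorphamine peaks than control peaks, covering more bases, and most of the excess lay between Marcks and Rfpl4b and at Fyn and Traf3ip2, away from the promoters of its genes. In the purmorphamine list 714 peaks of the block covered 455 kb, and in the control list 443 peaks covered 241 kb. Of the purmorphamine peaks 474 had no partner, which was 66.4% (62.8 to 69.8), against 36.5% over the whole list. Of the control peaks 96 had no partner, which was 21.7% (18.1 to 25.7), against 41.1% over the whole list. The block thus held 378 more purmorphamine-only than control-only peaks, and these are the values by which it was chosen. Since the rule used this contrast, the shares of the whole lists stand beside these counts only as their setting.

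Among the 541 blocks of 5 Mb that held a peak, this was the one with the largest excess. The next were 2 blocks of chromosome 13, at 95 to 100 Mb and 15 to 20 Mb, with an excess of 353 and 277. The excess ran against both the chromosome and the genome. Summed over all blocks the excess was -5385, so that control-only peaks were the more frequent kind, the median block had an excess of -9, and 163 of 541 blocks were above 0. On chromosome 10 the other 26 blocks summed to -643. On either side, the block at 30 to 35 Mb had 14 purmorphamine-only and 42 control-only peaks, and the block at 40 to 45 Mb had 53 and 103. Base pairs gave the same picture. The purmorphamine list covered 1.89 times as many bases as the control list in the block and 0.938 times as many over all lists, and 10 of 430 blocks with at least 100 peaks had a higher ratio.

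**Figure D1:**
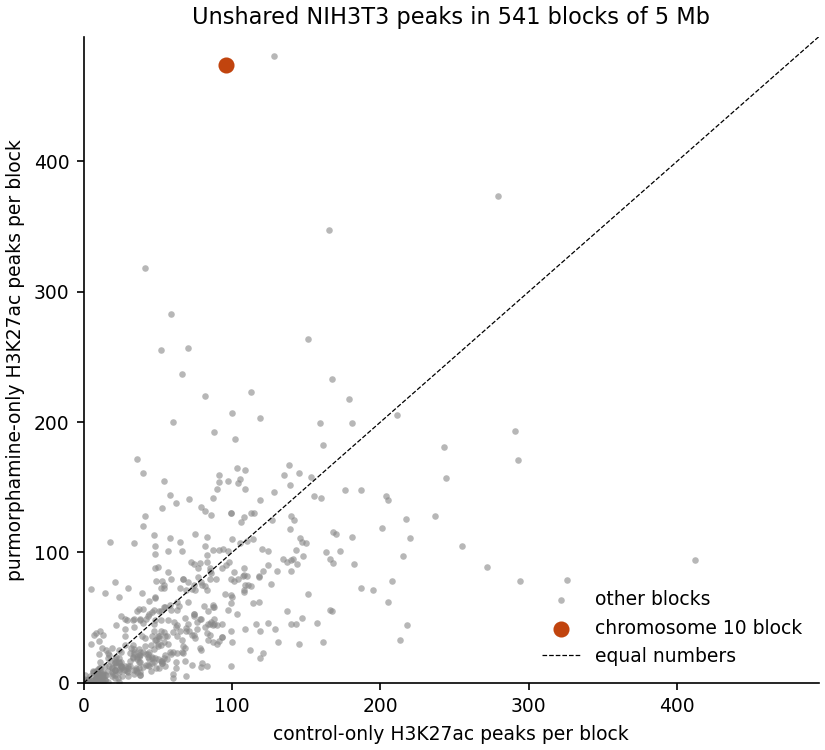
Each point is a 5 Mb block of the mouse genome, with its number of control-only H3K27ac peaks on the horizontal axis and of purmorphamine-only peaks on the vertical axis, both on linear scales. The dashed line marks equal numbers, and the chromosome 10 block stands at 96 and 474, far above the line on which blocks with no excess would lie.

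The edges of the block did not cut through acetylated chromatin. In the purmorphamine list the last peak before the block ended at 34484649 and the first peak inside it, at the Hdac2 promoter, began at 36973700. The last purmorphamine peak inside was the shared peak at Mfsd4b3, from 39959600 to 39960299 with rank 16323, and the first one outside was a purmorphamine-only peak from 40019400 to 40019849 with rank 45537. In the control list the peaks nearest to the edges inside were also those of Hdac2 and Mfsd4b3, and those outside ended at 34619249 and began at 40053550.

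The acetylated part of the block began at Hdac2. The first 7 of its 20 bins of 250 kb, from 35.0 to 36.75 Mb, held no peak of either NIH3T3 list. This stretch holds Amd2, an S-adenosylmethionine decarboxylase gene, and most of Hs3st5, a heparan sulfate sulfotransferase gene, and neither gene had an NIH3T3 peak within 20 kb. In the remaining 13 bins purmorphamine-only peaks outnumbered control-only peaks in 11, the numbers were equal in 2, and control-only peaks were more frequent in 0.

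A few bins held most of the excess. Ranked by excess, the first 6 bins had 344 of the 378 peaks, or 91.0%, and 5 of them were adjacent, from 37.5 to 38.75 Mb. This ranking used the excess itself, which also depends on how many peaks a bin holds. The purmorphamine-only shares of these 6 bins ran from 65.7% to 85.4%, against 66.4% in the block. The bin at 38.25 to 38.5 Mb had the largest excess, where 88 of 134 purmorphamine peaks and 10 of 93 control peaks were unshared. At 38.0 to 38.25 Mb there were 67 among 100 purmorphamine peaks and 4 among 51 control peaks. The bins to its left were similar. At 37.75 to 38.0 Mb 59 of 75 purmorphamine peaks and 4 of 23 control peaks had no partner, and at 37.5 to 37.75 Mb 55 of 77 and 10 of 47. At 38.5 to 38.75 Mb 41 of 48 purmorphamine peaks had no partner, against 3 of 14 control peaks, and the purmorphamine list covered 3.34 times as many bases as the control list. The sixth bin stood apart from these, at 39.5 to 39.75 Mb, with 68 of 95 purmorphamine peaks and 3 of 50 control peaks unshared and 2.70 times as many bases. Between the 2 stretches, from 38.75 to 39.25 Mb, the excess was 2 and 1 per bin. Both bins next to Marcks held many unshared peaks of each list. Those at 37.0 to 37.25 Mb were 36 purmorphamine-only and 21 control-only, and those at 37.25 to 37.5 Mb were 26 and 19.

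**Figure D2:**
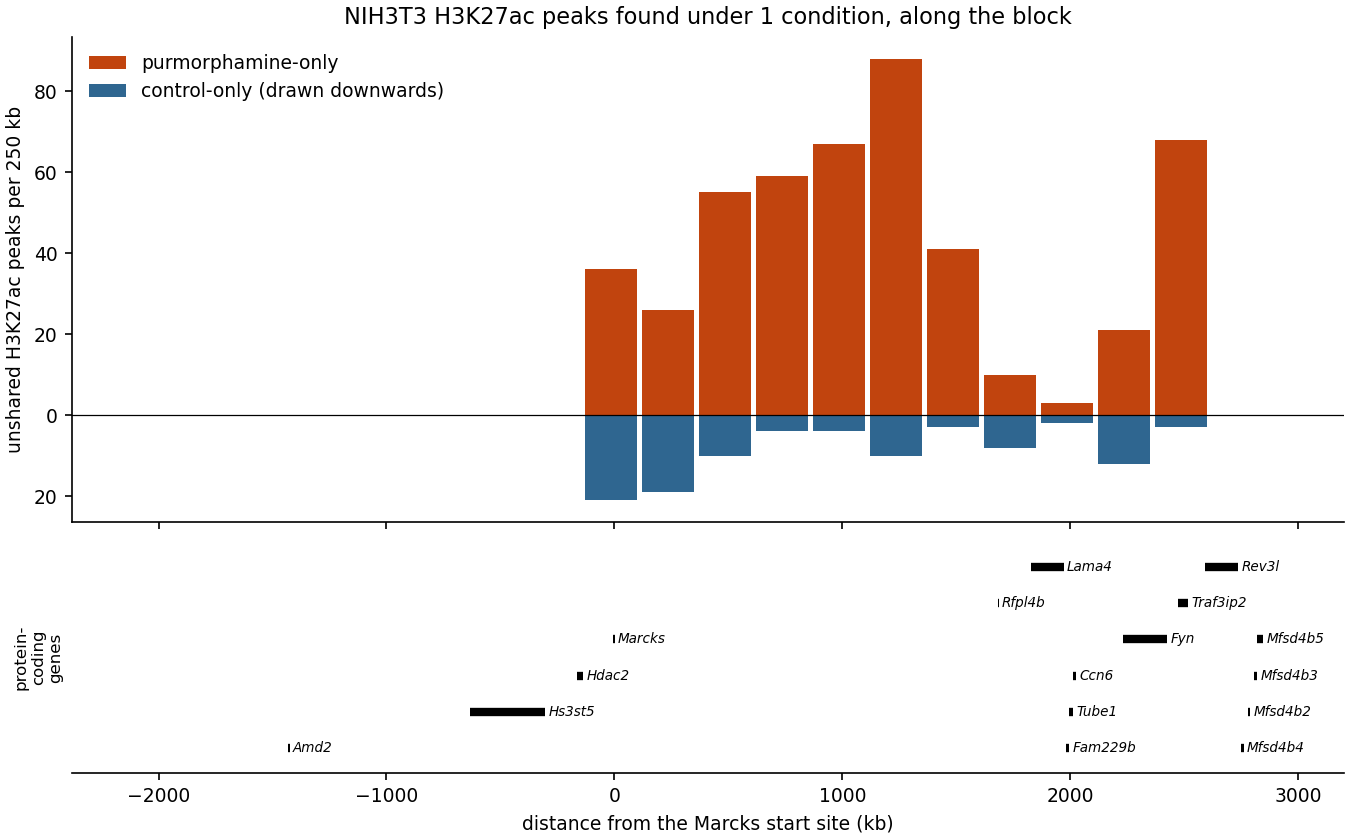
Bars give the number of purmorphamine-only peaks (upwards) and control-only peaks (downwards) in each 250 kb bin of the block, by distance in kb from the Marcks start site, with the 16 protein-coding genes drawn below to scale. The highest bars stand between Marcks and Rfpl4b, where no protein-coding gene lies, and again at Fyn and Traf3ip2, while the left end of the block has no bar.

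By genes, the block split into a large gene-free interval and a pair of neighbouring genes. The 1682 kb from Marcks to Rfpl4b hold no protein-coding gene in the GENCODE annotation. They held 502 purmorphamine peaks, 348 of them purmorphamine-only, and 297 control peaks, 66 of them control-only. This excess of 282 was 74.6% of that of the block, and the peaks covered 304.5 kb and 159.1 kb. The interval also held most peaks of the block, which had 714 purmorphamine and 443 control peaks. Its unshared shares of 69.3% and 22.2% were close to the 66.4% and 21.7% of the whole block. The 131 kb between Hdac2 and Marcks added an excess of 20, with 26 of 38 purmorphamine peaks and 6 of 23 control peaks unshared. The bodies of both genes added 0.

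The second stretch covered Fyn, which encodes a tyrosine kinase of the Src family (39368855 to 39565381), and Traf3ip2, which encodes an adaptor of interleukin receptor signaling (39612934 to 39655307). The Fyn body had 38 of 59 purmorphamine peaks and 10 of 45 control peaks unshared, an excess of 28. The 47.6 kb between these genes had 19 of 30 purmorphamine peaks unshared and 0 of 15 control peaks, and its purmorphamine peaks covered 28.65 kb against 6.10 kb, the largest ratio of any interval with an excess, at 4.70. The Traf3ip2 body had 20 of 25 and 1 of 10 unshared, an excess of 19. Beyond it, the 76.8 kb up to Rev3l had an excess of 8. From the 3′ end of Fyn onwards antisense genes overlap this stretch, so peaks there cannot be given to 1 gene. Within 5 kb of E130307A14Rik, which lies on the strand opposite to Traf3ip2, 29 purmorphamine-only and 1 control-only peaks were counted, and within 5 kb of Gm16365, which spans the interval between both genes, there were 23 and 0.

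Most of the excess lay away from protein-coding genes. All 16 protein-coding genes that overlap the block were counted with 20 kb on either side. Fyn had an excess of 36 and Traf3ip2 of 31, Hdac2, a histone deacetylase gene, had 5, Rfpl4b 2 and Ccn6, a gene of a matricellular protein, 1. Tube1, Fam229b, Rev3l, Mfsd4b2, Mfsd4b3, Mfsd4b4, Mfsd4b5, Hs3st5 and Amd2 had 0. Control-only peaks were more frequent at 2 genes. Lama4, which encodes a laminin chain, had 4 purmorphamine-only among 12 peaks and 6 control-only among 15, and Marcks, which encodes a membrane-bound actin-binding protein, had 1 among 5 and 5 among 9. With 5 kb on either side, Marcks had 0 unshared peaks of either list and Hdac2 had an excess of 0, while the counts at Lama4 were the same. Together the windows with 20 kb on either side held an excess of 69, or 18.3%, and the excess outside them was 309, or 81.7%. Among noncoding genes with 5 kb on either side, the lincRNA gene Gm26535 had the opposite balance, with 0 of 5 purmorphamine peaks and 9 of 13 control peaks unshared.

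At promoters, taken as the 2 kb before a start site and the 1 kb after it, no gene had acetylation under 1 condition alone. Of the 16 genes 10 had a peak in both NIH3T3 lists, 6 in neither and 0 in 1 list alone. The same counts over all promoters of the genome were not taken. The Traf3ip2 promoter carried the second-ranked peak of the whole purmorphamine list, from 39610850 to 39614549, with a log2 enrichment of 6.01. Here and below log2 enrichment is the largest log2 ratio of ChIP over input within a peak. In the control list the peak at this promoter ran from 39611550 to 39614649, with rank 2521 and a log2 enrichment of 4.67. The Marcks promoter peak was 6250 bp wide in both lists, with 5.76 under purmorphamine and 5.47 in the control. The order was the reverse at Hdac2, with 4.75 and 5.20. At Lama4 values were 2.76 and 3.08. Rev3l, which encodes the catalytic subunit of a translesion DNA polymerase, had 2 pairs of overlapping peaks at its promoter. The pair that began at 39730350 had 4.86 under purmorphamine and 4.03 in the control, and the pair that began at 39731650 had 4.89 and 4.99. At the Fyn promoter log2 enrichment was 4.58 and 4.46, and the best peak was 1900 bp wide under purmorphamine and 750 bp in the control. The best peak at the start sites of Fam229b and Tube1, which these genes share, had 3.11 and 3.01, that of Mfsd4b4 4.33 and 4.30, and that of Mfsd4b3 3.67 and 3.07. Hdac2 and Lama4 thus had the higher value in the control, and the pairs at Rev3l differed in direction.

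Purmorphamine-only peaks lay far from start sites. Of 474 such peaks 378 lay between genes, 84 in introns and 12 touched an exon. The median distance to the nearest protein-coding start site was 390 kb, 348 peaks (73.4%) were more than 100 kb from one, and 8 were within 5 kb. Shared purmorphamine peaks of the block were also mostly distal, with 166 of 240 between genes and a median distance of 331 kb. The position far from start sites was thus common to both kinds of peak. These positions were not counted over the whole list, and the block holds the 1682 kb without a protein-coding gene described above.

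These peaks were grouped closely. Peaks of both lists stitched across gaps of up to 12.5 kb formed 44 clusters, of which 30 had an excess of purmorphamine-only peaks, 7 of control-only peaks and 7 neither. The first 5 by excess held 246 of the 378 peaks, or 65.1%. Their purmorphamine-only shares ran from 61.6% to 86.4%, against 66.4% in the block. The widest, from 39414100 to 39681799, ran 268 kb across Fyn and Traf3ip2. It had 121 purmorphamine and 69 control peaks and an excess of 73. The next lay between Marcks and Rfpl4b. The cluster from 38232800 to 38397999, with the lincRNA gene Gm48197 inside it, had an excess of 53, and that from 38038700 to 38195099, with Gm31378 and 4930591E09Rik, had 49. The clusters from 37682450 to 37772599 and from 38509000 to 38577649 overlapped no annotated gene and had 36 and 35, with 3.05 and 3.26 times as many bases under purmorphamine.

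Many unshared peaks were close neighbours of other peaks. When peaks of a list within 1 kb were merged, the purmorphamine list had 233 regions in the block, 126 of them without a control region, and the control list had 171, 31 of them without a purmorphamine region. The excess was then 95 regions. The distance to the nearest peak of the other list shows the same. The median was 1.70 kb for purmorphamine-only peaks of the block, 183 of 474 (38.6%) lay within 1 kb, and 44 (9.28%) were more than 10 kb away, with the farthest at 31.6 kb. Over the whole purmorphamine list 45.2% lay within 1 kb and 20.7% beyond 10 kb. For the 96 control-only peaks of the block the median was 0.375 kb, and 72 (75.0%) lay within 1 kb, against a median of 1.00 kb and 50.2% over all control-only peaks.

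The best-ranked purmorphamine-only peaks were of middling rank. The first, from 38085200 to 38086249, had rank 13528 and a log2 enrichment of 3.81, and the nearest control peak was 5700 bp away. The second, from 38091200 to 38095149, had rank 17426 and was 3950 bp wide, but a control peak lay 100 bp from its edge. The third, from 38365950 to 38366849, had rank 17645 with a control peak at 250 bp. The peaks ranked 19356 and 19884 lay in the same cluster as the first. The last of the 6, ranked 20351, was in an intron of Fyn at 39539700 to 39540499. None of these 6 overlapped a limb H3K27ac or H3K4me2 peak, but the one ranked 17426 overlapped an H3K27me3 peak of Shh-/- limb buds. The best-ranked control-only peak, from 37348000 to 37348649 with rank 25479, was in an intron of Gm26535. The next control-only peak, ranked 33497, was in an intron of Lama4 and abutted a purmorphamine peak. The third, ranked 37062, lay between Rfpl4b and Lama4, 11.2 kb from the nearest purmorphamine peak.

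The unshared share rose as ranks got worse, in the block and in the whole list. Each list was split by rank into 10 deciles, with decile 1 the best. In decile 1 of the purmorphamine list 0 of 34 block peaks were unshared, with a Wilson upper bound of 10.2%, against 1.38% of the whole decile, and in decile 2 the numbers were 2 of 44. In decile 3, 21 of 53 block peaks were unshared (39.6%), against 12.9% of all, in decile 7, 77 of 84 (91.7%), against 52.7%, and in decile 10, 71 of 79 (89.9%), against 65.0%. In the control list the order was the reverse. In its decile 4, 1 of 51 block peaks was unshared (1.96%), against 27.6% of all, and in its decile 10, 21 of 48 (43.8%), against 74.6%. The purmorphamine-only peaks had a median width of 200 bp, the same as over the whole list. Shared purmorphamine peaks of the block had a median width of 750 bp, against 550 bp in all.

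**Figure D3:**
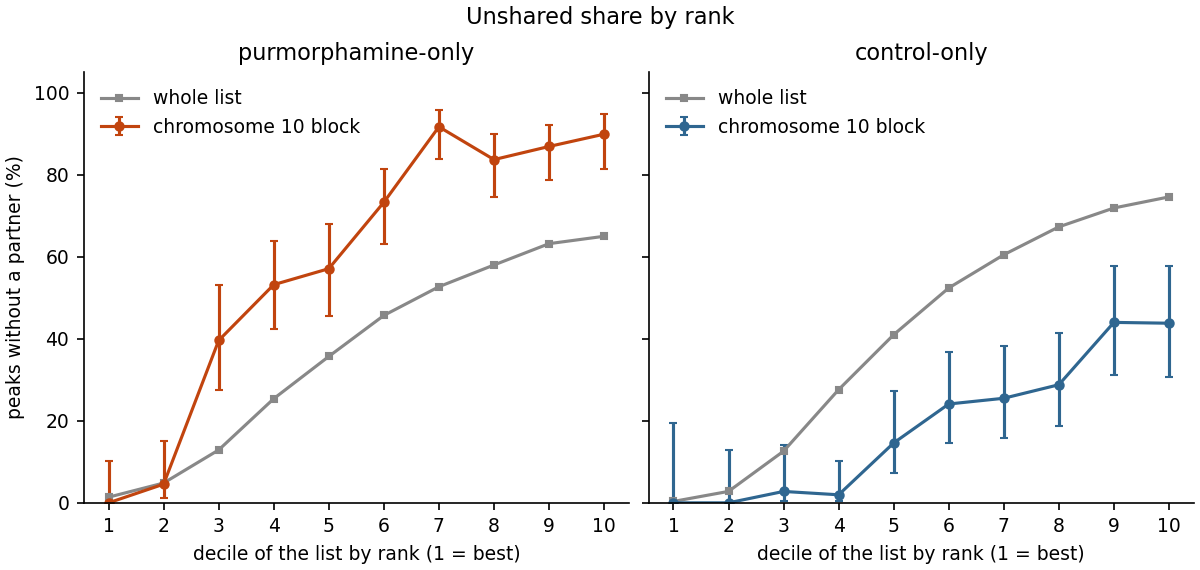
The percent of peaks without a partner is plotted for each decile of the purmorphamine list (left) and the control list (right) by rank, with the block in colour, 95% Wilson intervals as bars and the whole list in grey. From decile 3 onwards the block lies above the whole list on the left, and in each decile it lies below it on the right.

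Peaks present under both conditions also had higher purmorphamine values. Each purmorphamine peak was paired with the control peak it overlapped most, if the reverse also held. For 221 such pairs in the block, log2 enrichment was higher under purmorphamine in 170 (76.9%), with a median of 3.18 under purmorphamine and 2.82 in the control. The median difference was 0.37, with quartiles of 0.04 and 0.77. A wide purmorphamine peak can span several control peaks and is then paired with 1 of them, which need not be the strongest. At the Fyn promoter, for example, the purmorphamine peak with 4.58 was paired with a control peak of 2.89 and not with that of 4.46 inside the same peak. The measures were therefore also taken over chains of overlapping peaks, with the highest log2 enrichment of each list. Of 216 chains in the block 166 (76.9%) were higher under purmorphamine, the median difference was 0.36, and the purmorphamine peaks covered more bases in 157 (72.7%), against 39.2% of all chains. Over all 45152 pairs of the genome the median difference was 0.04 and 52.8% were higher. Width moved the same way. The median width was 850 bp under purmorphamine and 450 bp in the control, and 160 pairs (72.4%) were wider, against 40.8% of all pairs. These pairs share libraries, inputs and peak caller with the counts that chose the block, and are no separate evidence. Among 337 blocks with at least 50 pairs the block was number 4 by median difference, with the highest at 0.52 and the lowest at -0.43. The neighbouring blocks had 0.08 over 34 pairs and -0.01 over 118.

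The shared peaks followed the same subdomains. Between Fyn and Traf3ip2 all 11 pairs were higher under purmorphamine, with a median difference of 0.94 and median widths of 1600 bp and 250 bp. In the Traf3ip2 body all 5 pairs were higher, with a median of 0.76. Between Marcks and Rfpl4b 108 of 138 were higher, with a median of 0.42, between Hdac2 and Marcks 11 of 12, with 0.46, and in Fyn 15 of 19, with 0.47. Lama4 and the interval from Ccn6 to Fyn, which separate the stretches with an excess, differed from them. In Lama4 2 of 8 pairs were higher, with a median of -0.19, and from Ccn6 to Fyn 6 of 13, with -0.05. The best-ranked peak outside a protein-coding promoter was nearly the same in both lists. It covered the lincRNA gene Gm31378 from 38113350 to 38128899 under purmorphamine, with rank 234 and a log2 enrichment of 5.42, and from 38113600 to 38127049 in the control, with rank 211 and 5.38. At 15550 bp and 13450 bp it was wider than either Marcks promoter peak, and it holds the 3 AP-1 matches shown above.

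**Figure D4:**
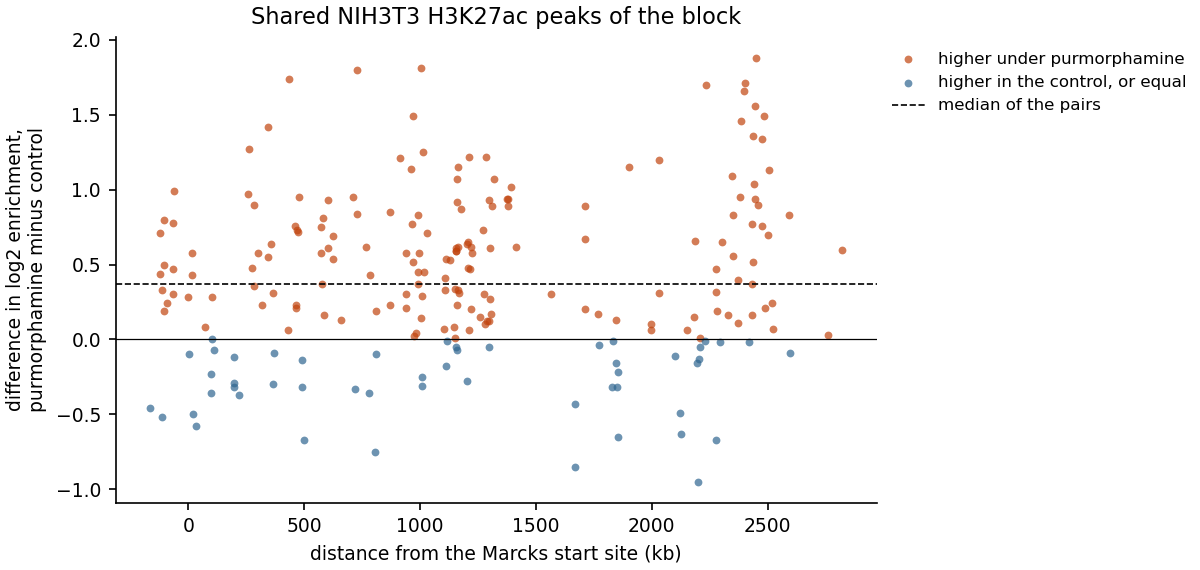
Each point is a pair of shared H3K27ac peaks, placed by distance in kb from the Marcks start site, with log2 enrichment under purmorphamine minus control on the vertical axis. The dashed line is the median of 0.37, and most points lie above 0. The highest point, at 1.88, lies between Fyn and Traf3ip2, and the next, at 1.81 and 1.80, lie between Marcks and Rfpl4b.

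The limb lists had fewer peaks in the block than the NIH3T3 lists and no such excess, although the block ranked 158 of 541 by WT and 129 by Shh-/- H3K27ac peaks. WT limb buds had 120 H3K27ac peaks and Shh-/- limb buds 114, covering 49.7 kb and 46.0 kb. Of the WT peaks 64 had no partner (53.3%, 44.4 to 62.0), against 48.5% over the whole list, and of the Shh-/- peaks 57 (50.0%, 41.0 to 59.0), against 38.4%. WT-only peaks thus exceeded Shh-/- only peaks by 7, below the median of 11 over all blocks. For H3K4me2, 8 of 32 WT peaks were unshared (25.0%, 13.3 to 42.1), against 25.7%, and 15 of 43 Shh-/- peaks (34.9%, 22.4 to 49.8), against 22.5%. Both intervals for H3K4me2 and that for WT H3K27ac held the value of the whole list, while the interval for Shh-/- H3K27ac lay above it under this overlap rule. The difference was smaller with gaps of up to 500 bp counted as shared, at 29 of 114 Shh-/- H3K27ac peaks (25.4%), against 20.9% over the whole list. It was also smaller with peaks within 1 kb merged, at 40.0% against 31.5%. It was larger in the better-ranked 50% of every list, at 45.7% against 29.3%, and with 50% of a peak covered, at 60.5% against 46.8%. The share of the block was above that of the whole list under each setting tried.

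Limb acetylation was placed differently along the block. From 38.0 to 38.25 Mb, where 100 purmorphamine peaks lay, neither limb H3K27ac list nor limb H3K4me2 list had a peak. From 38.5 to 38.75 Mb there were 13 WT and 19 Shh-/- H3K27ac peaks, and from 39.0 to 39.25 Mb, where NIH3T3 cells had 9 peaks per list, there were 18 and 12. The bin with Traf3ip2 had most WT peaks, with 25 in WT and 16 in Shh-/- limb buds. The Traf3ip2 body had 11 WT peaks, 10 of them WT-only, and 5 Shh-/- peaks, 4 of them Shh-/- only, so that few of them coincided. At its promoter the WT limb list had 2 acetylated peaks and the Shh-/- list had 0, and the promoters of Lama4 and Ccn6 also had one in WT alone. Those of Fyn, Fam229b and Tube1 had one in the Shh-/- list alone. Of all 16 promoters 8 had a peak in the WT list and 8 in the Shh-/- list. The best-ranked WT-only peak at the Traf3ip2 promoter, from 39613500 to 39613849 with rank 13859, was 12550 bp from the nearest Shh-/- peak. The better-ranked WT-only peaks, ranked 6697 and 10058, lay in an intron of the lincRNA gene Gm48486, 47.7 kb from the Fyn start site, and in an intron of Fyn. The best Shh-/- only peaks, ranked 3691, 6440 and 9832, lay 143 kb from Rfpl4b, in E130307A14Rik and 102 kb from Marcks.

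**Figure D5:**
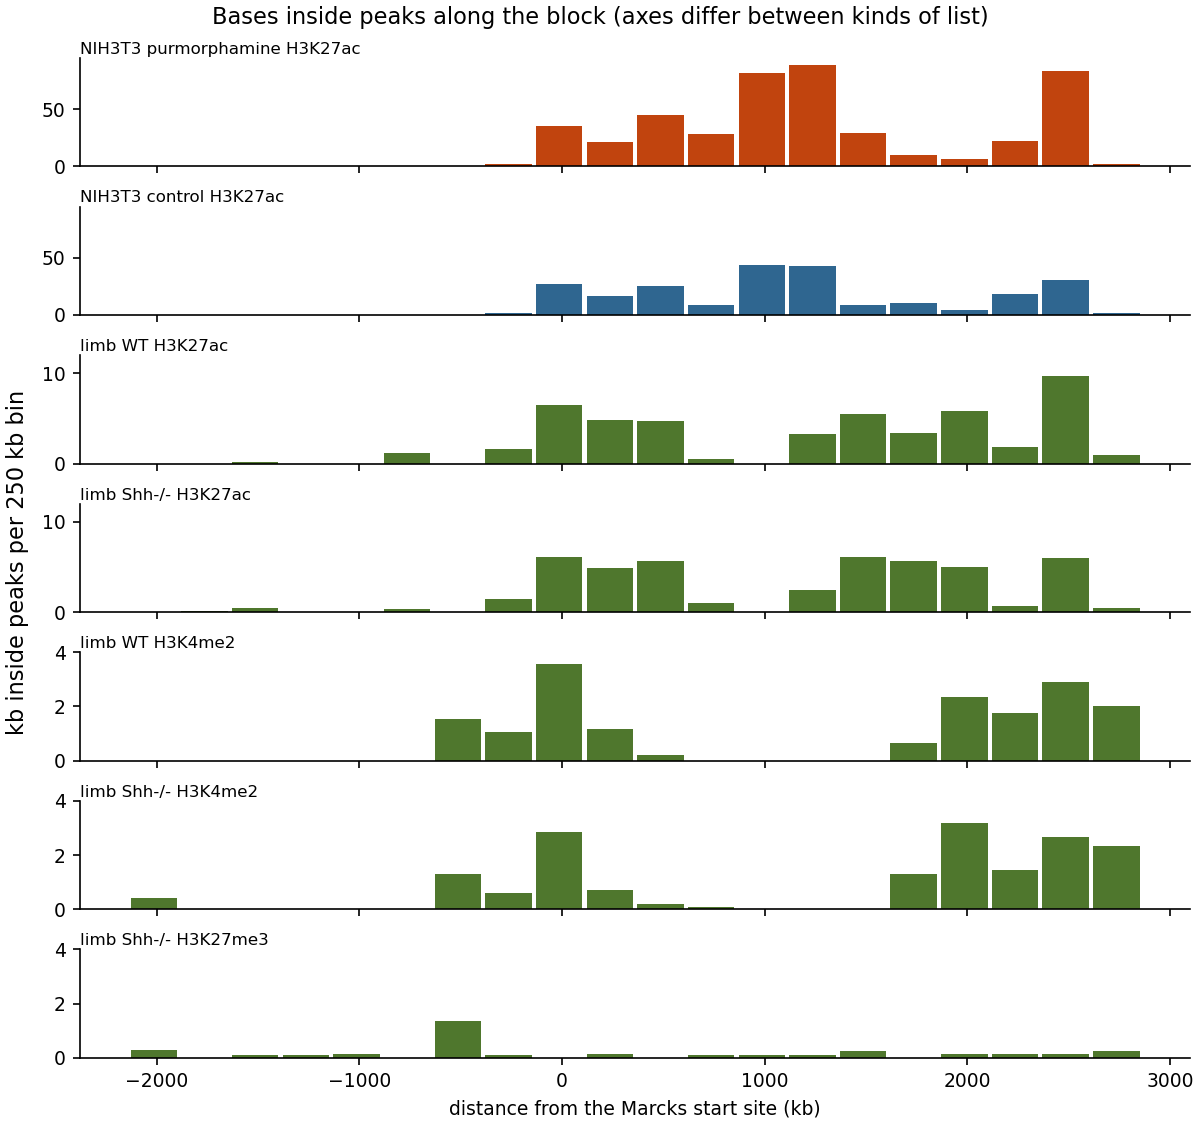
Bars give the kb covered by peaks of each of the 7 lists in 250 kb bins, by distance in kb from the Marcks start site, with a larger vertical scale for NIH3T3 cells than for limb buds. NIH3T3 acetylation is highest between 900 and 1400 kb and at 2500 kb, while the limb H3K27ac and H3K4me2 lists are empty around 1000 kb. Limb H3K27ac is spread over the bins on either side of that gap. Limb H3K4me2 lies mainly near Marcks, at Hs3st5 to the left of it and at the right of the block.

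H3K27me3, mapped in Shh-/- limb buds alone, had 20 peaks in the block that covered 3.50 kb. The widest was 1100 bp, from 36507700 to 36508799 in Hs3st5, 0.886 kb from its start site, and it coincided with limb H3K4me2 peaks. Promoters of 3 of the 16 genes had such a peak, namely Hs3st5, Fyn and Mfsd4b2, and the share over all promoters was not counted. The peaks at Fyn and Mfsd4b2 were weak, at 150 bp and 100 bp wide with log2 enrichments of 2.33 and 2.30. False discovery rates in this list reached 0.255. Of the 474 purmorphamine-only peaks 2 overlapped an H3K27me3 peak (0.422%, 0.116 to 1.53), and the share over all purmorphamine-only peaks, 0.959%, lay within that interval.

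Purmorphamine-only peaks seldom coincided with limb H3K27ac peaks, in the block as in the whole list. A limb H3K27ac peak of either genotype overlapped 24 of 474 (5.06%, 3.43 to 7.42), and over all purmorphamine-only peaks the share was 6.55%, which lay within the interval. For shared purmorphamine peaks it was 47 of 240 (19.6%, 15.1 to 25.1), against 29.6% of all. For WT limb H3K4me2 the numbers were 2 of 474 (0.422%, 0.116 to 1.53), against 4.22%, and 17 of 240 (7.08%, 4.47 to 11.0), against 29.7%. Shared and unshared purmorphamine peaks of the block differed in width, with the medians of 750 bp and 200 bp given above, and the part of width in these shares was not tested. In the other direction, limb peaks of the block coincided with NIH3T3 peaks more often than limb peaks did in the genome. Of the 64 WT-only peaks 31 overlapped a peak of either NIH3T3 list (48.4%, 36.6 to 60.4), against 28.2% of all WT-only peaks, and of the 57 Shh-/- only peaks 27 (47.4%, 35.0 to 60.1), against 26.0%. The block held more NIH3T3 peaks than most blocks, being second by number in the purmorphamine list, and the part of that density in this overlap was not tested.

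The GLI consensus was rare in the acetylated peaks of the block. It occurred in 1 of 474 purmorphamine-only peaks (0.211%, 0.0373 to 1.19), against 0.431% over all purmorphamine-only peaks, and in 5 of 240 shared peaks (2.08%, 0.893 to 4.78), against 0.893%. Per 100 kb of purmorphamine peak there were 0.729 and 1.57 matches in unshared and shared peaks of the block. Over the whole list these rates were 1.60 and 1.05. Among control peaks the consensus occurred in 0 of 96 control-only peaks (upper bound 3.85%), against 0.163% of all control-only peaks, and in 5 of 347 shared peaks (1.44%, 0.617 to 3.33), against 0.892%. For comparison, 0.253% of all 32851 RefSeq promoters of 300 bp held it. Shared purmorphamine peaks of the block had a median width of 750 bp, and a longer stretch has more room for a match, so these shares are not like for like. The 9 bases searched do not cover every sequence that GLI proteins can bind.

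The AP-1 pattern TGANTCA, which reads as itself on the other strand and cannot overlap a GLI match, occurred in 34 of 474 purmorphamine-only peaks (7.17%), against 8.49% of all, and in 75 of 240 shared peaks (31.2%), against 22.2%. Per 100 kb of peak there were 27.7 and 34.0 matches in unshared and shared peaks of the block, against 33.9 and 36.9 over the whole list. With a central C or G only, which are the forms shown above, 22 (4.64%) and 44 (18.3%) peaks held it, against 5.37% and 16.0%. Of RefSeq promoters 5.20% did, again in windows of 300 bp that differ in length from the peaks. The base composition also differed from the rest of the list. Purmorphamine-only peaks of the block were 41.6% GC, against 46.6% of all, and shared ones 41.8%, against 49.8%. Of their bases 30.8% were marked as repetitive in the reference, against 19.2% in all purmorphamine-only peaks, and in shared peaks 22.2%, against 15.6%. The part of base composition and repeats in the excess was not tested.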

How the data were processed

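Histone peaks were analysed from 7 deposited peak lists. The authors called them with CisGenome 2.1.0 on mm10, ChIP against input, with both replicates entered together; the submitters' processing notes also name Bowtie2 2.2.5 and limma. For each peak the authors deposited a false discovery rate (a q-value), a score by which peaks are ranked (at least 3.00 in all lists), a log2 ratio of ChIP to input, and −log10 of the smallest Poisson p-value (at least 5.00). Reads per library are not given by the lists, so their depth is unknown here, and a difference in depth or antibody yield between conditions would change the number of weak peaks.

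The 19 autosomes, X and Y were used, and each peak was placed by its midpoint. Coordinates are printed as deposited and read as 1-based; they may be off by 1 bp. Overlaps were computed in Python 3.11.15 (numpy 2.4.6, pandas 2.3.3) and checked against bedtools 2.31.1 and on simulated data. Genes came from the basic GENCODE annotation M21, sequence from GRCm38, whose coordinates are those of mm10, and promoters for the motif share from RefSeq. Motif matches were exact. The named items were all protein-coding genes of the block, the 6 best purmorphamine-only peaks, the 3 best of each other kind of unshared or shared peak in H3K27ac, the widest H3K27me3 peak and all GLI matches in purmorphamine peaks. The block, its lists and these rules were chosen with earlier results of these data known. The form of the AP-1 pattern with a central C or G was added after its matches had been seen, as were the chains of overlapping peaks in place of pairs.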

Additional observations from a re-analysis of the deposited data

How the results depend on the processing

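Of 42 alternative values 21 stayed close to the value reported and 21 moved. A reversal could be marked only for the excess of the block and for the median log2 difference, and neither reversed. Requiring 50% of a peak to be covered gave a purmorphamine-only share of 78.2%, a control-only share of 28.4%, a WT-only share of 65.0% and a Shh-/- only share of 60.5%. Counting gaps of up to 500 bp as shared gave 52.0%, 9.03%, 32.5% and 25.4%. The WT-only and Shh-/- only shares of the whole limb lists were then 30.5% and 20.9%. With 50% of a peak covered these whole-list shares were 58.9% and 46.8%. The better-ranked 50% of every list gave 58.6% and 13.6% in NIH3T3 cells, with an excess of 140 peaks. Merging peaks within 1 kb gave a purmorphamine-only share of 54.1%, an excess of 95 regions, and limb shares of 41.8% and 40.0%, against 39.4% and 31.5% over the whole limb lists. By base pairs the purmorphamine-only share was 56.9% and the Shh-/- only share 40.7%, the latter against 29.5% over the whole list. In the block 258850 bp of purmorphamine peaks lay outside control peaks, and 44950 bp of control peaks lay outside purmorphamine peaks. Over these alternatives the purmorphamine-only share of the whole list was 24.5% to 44.2%, below that of the block under each of them. With bins of 500 kb, the 3 bins with most of the excess held 81.0% of it. With 1 mismatch allowed, 5.49% of purmorphamine-only block peaks held the GLI consensus, against 6.95% of all. Lists of equal size, and any overlap with the block in place of the midpoint, left each share within its interval. No paired analysis was possible because each list was called on both replicates together, and for the same reason no replicate could be left out. The lists allow no statement on peaks under their thresholds: a peak called under 1 condition alone may lie just under the threshold of the other list.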
